A study of Homo sapiens with 8 samples.

Results

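Ribosome biogenesis genes encode the factors that make ribosomes, from transcription of ribosomal RNA to the last trimming of the subunits. A fixed list of 37 such symbols was followed on 8 expression arrays of HuCCT1, a cholangiocarcinoma cell line, that is, cells from a cancer of the bile ducts. Of these 37, 30 had a probe set (a group of short probes read as 1 value) annotated with their symbol alone, out of 19775 genes measured that way. Where a gene had several such probe sets, the one with the highest mean over the 8 arrays stood for it. Of the 7 members not measured, NOP56, DKC1, BOP1 and PPAN appeared in the annotation only on probe sets shared with other symbols, and GNL3, EBNA1BP2 and DDX18 were not in the annotation used here. None of these 7 has a value below.

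The cells carried either a control shRNA (4 arrays) or the shRNA against YAP1 that the labels call YAP shRNA 1 (4 arrays). YAP1 is the coactivator through which the Hippo pathway sets transcription, with TEAD proteins as its DNA-binding partners. In both groups doxycycline at 100 ng/ml, started 3 days before seeding, induced the shRNA, so the controls carry the drug and a hairpin too. Each arm is 1 hairpin in 1 cell line, and nothing in the labels says whether replicates were grown as separate cultures. The p-values therefore weigh differences against the spread among these samples, which may be technical. The question here is whether genes that make ribosomes differ after YAP1 knockdown.

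As background, RNA polymerase I transcribes the ribosomal RNA precursor in the nucleolus, with UBTF and RRN3 among its factors. Small nucleolar ribonucleoproteins (snoRNPs) then modify that RNA, box C/D particles by methylation and box H/ACA particles by pseudouridylation. The small subunit processome and a separate set of large subunit factors fold, cut and export the pre-ribosomes. Many of these genes are known targets of MYC, a transcription factor that pairs with MAX and binds the E-box CACGTG, and growing tumour cells usually express them strongly.

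The knockdown was present in every array of its group. YAP1 read 12.59, 12.61, 12.77 and 12.60 in the control arrays and 10.40, 10.55, 10.51 and 10.54 in the YAP shRNA arrays (log2 values). Array medians lay between 6.22 and 6.25. Control shRNA replicate 4 stood apart on the second principal component, at -23.0 against -6.39 to 12.3 for the other arrays, so the counts of calls in each list, and the members whose call it alters, are also given without it. Bile duct markers were present: 7 of 8 were measured, and their summed level (log2 of the summed linear values) lay at 16.16 to 16.17 in both groups. Of these 7, CFTR, a chloride channel gene, rose by 1.07 and KRT19, a keratin gene, by 0.15, both also called without control shRNA replicate 4. For 5 measured leukocyte markers the summed level lay at 7.60 to 7.83 with the control shRNA and 8.13 to 8.41 with the YAP shRNA. LYZ and CD14 were higher by 0.86 and 0.46. PTPRC, the pan-leukocyte antigen gene, was lower by 0.22, a call lost without control shRNA replicate 4. Mean values with the control and YAP shRNA were 6.33 and 7.19 for LYZ, 5.96 and 6.42 for CD14, and 3.96 and 3.74 for PTPRC. The summed level of 7 fibroblast markers was 9.01 to 9.15 with the control shRNA and 9.27 to 9.37 with the YAP shRNA, with COL1A1 higher by 0.52. No endothelial (5 measured) or hepatocyte (5 measured) marker was called by limma, and 1 and 0 had an unadjusted p under 0.05. The part of these markers in the results below was not tested.

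Most ribosome biogenesis genes differed little between the groups, and the estimated differences of the few that were called were below 1.2-fold. UBTF and NOB1 rose and BYSL fell, 3 of 30 members or 10.0% (limma on the log2 values, with the Benjamini-Hochberg adjusted p, taken across every gene measured, below 0.05). Of all 19775 genes, 16.7% were called, 9.49% higher and 7.17% lower, so the members' share lay below that of all genes. Without genes dimmer than the median, 8 of the 30 members were called (4 higher, 4 lower), where 39.3% of the remaining genes were. The median log2 difference (YAP shRNA minus control shRNA) was -0.035 over the 30 members and 0.013 over all genes. In 20 members the difference was negative, or 66.7%, against 46.1% of all genes. These signs depended on the probe set: of 18 members with several, the probe sets agreed in sign in 8 and disagreed in 10. With the mean of probe sets PES1, NOP16, NIP7 and TBL3 turned positive and WDR12 negative, and the members' median was -0.020. The sizes were small in both directions: the median absolute log2 difference was 0.049 in the members and 0.092 over all genes. The 95% confidence interval lay wholly within 1.2-fold in either direction for 25 of the 30 members, so for those genes changes beyond that size lie outside the interval. The 3 called members were not among these 25. Their intervals reached 0.30 for UBTF, 0.29 for NOB1 and -0.30 for BYSL, where 1.2-fold is 0.26 on the log2 scale.

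Without control shRNA replicate 4 the count turned mostly to falls. UBTF rose, and BYSL, RRP9, UTP20, NOP2 and MRTO4 fell, 6 of 30 or 20.0%, where 19.6% of all genes were called (11.4% higher and 8.25% lower). Falls alone made up 16.7% of members. UBTF and BYSL were called both ways, and NOB1 was not called without that array (limma adjusted p = 0.0638). The median moved to -0.055, with 0.022 over all genes. The interval plot by role sets both fits side by side.

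**Figure D1:**
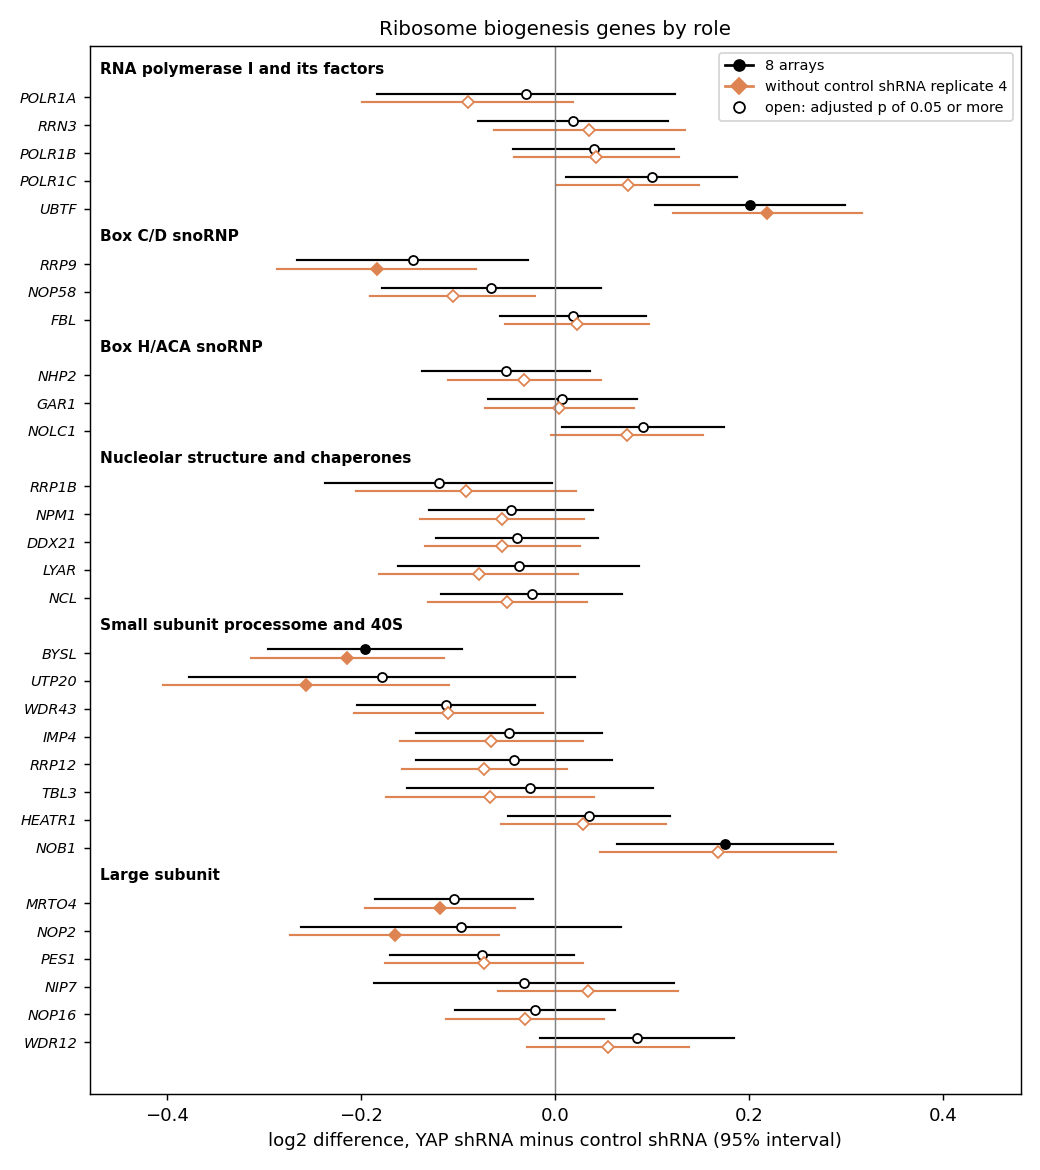
Log2 difference (YAP shRNA minus control shRNA) of the 30 measured members, by role, with 95% confidence intervals from limma. Black circles use 8 arrays, orange diamonds leave out control shRNA replicate 4, and filled symbols have an adjusted p below 0.05. All values lie between -0.26 and 0.22, and the filled symbols are UBTF and NOB1 on the right and BYSL, UTP20, RRP9, NOP2 and MRTO4 on the left.

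Of 5 polymerase I genes, 1 rose and 0 fell, and 4 of the 5 differences were positive. UBTF encodes the upstream binding factor that opens and marks active ribosomal RNA genes. It read 10.35, 10.45, 10.33 and 10.45 in the control arrays and 10.60, 10.63, 10.55 and 10.60 in the YAP shRNA arrays. Every YAP shRNA array lay above every control array. The log2 difference was 0.20 (standard error 0.043, limma adjusted p = 0.0137), or 0.22 without control shRNA replicate 4 (0.00961). Its 5 probe sets differed: the one used here and one other gave 0.20 and 0.21, while the remaining 3 gave -0.019, -0.0013 and 0.00028. With the mean of its probe sets UBTF stood at 0.078 and was not called (limma adjusted p = 0.288).

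POLR1C, a subunit shared by polymerases I and III, read 11.48 to 11.59 with the control shRNA and 11.63 to 11.66 with the YAP shRNA. The groups did not overlap, yet the difference of 0.099 did not pass (limma adjusted p = 0.124), nor did it without control shRNA replicate 4 (0.075, limma adjusted p = 0.149). POLR1A and POLR1B, the large catalytic subunits, and RRN3, the initiation factor, stood at -0.030, 0.040 and 0.018 with overlapping groups. In POLR1A the control arrays spread more widely (9.30, 9.16, 9.17 and 8.96) than the YAP shRNA arrays (9.12, 9.13, 9.07 and 9.14).

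Among small subunit factors, BYSL was lower and NOB1 higher. BYSL encodes bystin, needed for late maturation of the small subunit. It read 9.93, 9.80, 9.89 and 9.80 in the control arrays and 9.63, 9.65, 9.68 and 9.68 in the YAP shRNA arrays. The groups did not overlap, and control shRNA replicate 4 lay with the other controls. It fell by 0.20 on the log2 scale, with standard error 0.044 (limma adjusted p = 0.0162), and by 0.21 without that array (0.0115). The call was lost without YAP shRNA replicate 2, at a difference of -0.19 (limma adjusted p = 0.0513).

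NOB1, the endonuclease that makes the final cut of the small subunit RNA, went the other way. It read 10.26, 10.11, 10.16 and 10.15 in the control arrays and 10.39, 10.33, 10.27 and 10.40 in the YAP shRNA arrays. The lowest YAP shRNA array lay just above the highest control array. The log2 difference was 0.18 (standard error 0.049, limma adjusted p = 0.0409). The call was lost in 9 of 18 alternative settings, and over all 18 the difference stayed between 0.16 and 0.21. NOB1 is a gene of chromosome 16, where the median difference over 825 genes was 0.039.

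UTP20, a large scaffold of the processome, depended on a single control array. It read 9.83, 9.86, 9.99 and 9.58 in the control arrays and 9.59, 9.74, 9.54 and 9.69 in the YAP shRNA arrays. Control shRNA replicate 4 lay inside the YAP shRNA range, and the other 3 control arrays lay above it. The log2 difference was -0.18 (standard error 0.087, limma adjusted p = 0.220), and -0.26 without that array (standard error 0.063, limma adjusted p = 0.0269). WDR43, a processome protein, read 12.71, 12.79, 12.82 and 12.79 against 12.63, 12.70, 12.69 and 12.64. Its groups did not overlap, and its difference of -0.11 did not pass with or without control shRNA replicate 4 (limma adjusted p = 0.0965 and 0.114). IMP4, RRP12, TBL3 and HEATR1 lay between -0.048 and 0.035.

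No snoRNP gene was called by limma on the 8 arrays. Of 3 measured box C/D members and 3 measured box H/ACA members, 1 each had an unadjusted p under 0.05. RRP9, which binds the U3 snoRNA of the processome, read 9.68, 9.55, 9.59 and 9.46 in the control arrays and 9.43, 9.38, 9.44 and 9.44 in the YAP shRNA arrays. Its groups did not overlap, and control shRNA replicate 4 was the control array nearest to the YAP shRNA arrays. The log2 difference was -0.15 (standard error 0.052, limma adjusted p = 0.0962), and -0.18 without that array (standard error 0.044, limma adjusted p = 0.0242).

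FBL, the methyltransferase fibrillarin, barely differed. It read 12.92, 12.90, 12.90 and 12.92 in the control arrays and 12.91, 12.91, 12.94 and 12.95 in the YAP shRNA arrays, a difference of 0.019 with an interval of -0.057 to 0.094. GAR1, a core protein of box H/ACA particles, had an interval of -0.069 to 0.084 around 0.0075. NOLC1, a chaperone of snoRNPs, was 13.07 to 13.16 with the control shRNA and 13.17 to 13.24 with the YAP shRNA, a difference of 0.090 that did not pass with 8 arrays (limma adjusted p = 0.140) or with 7 (0.177). NOP58, a core box C/D protein, and NHP2 stood at -0.066 and -0.051.

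Large subunit factors gave 0 calls on 8 arrays by limma, with 1 unadjusted p under 0.05, and 2 falls without control shRNA replicate 4. MRTO4, which helps to assemble the ribosomal stalk, read 11.75, 11.73, 11.79 and 11.70 in the control arrays and 11.64, 11.62, 11.64 and 11.66 in the YAP shRNA arrays. The groups did not overlap. Its difference was -0.10 (standard error 0.036, limma adjusted p = 0.0846), and -0.12 without that array (0.0437). A second MRTO4 probe set gave -0.29 (limma adjusted p = 0.0468 over all probe sets).

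NOP2, a ribosomal RNA methyltransferase and an old proliferation antigen, read 11.98, 11.82, 11.87 and 11.62 in the control arrays and 11.74, 11.73, 11.72 and 11.70 in the YAP shRNA arrays. Here control shRNA replicate 4 was the lowest of all 8 arrays. The difference was -0.097 with 8 arrays (limma adjusted p = 0.436) and -0.17 with 7 (0.0436). PES1 and WDR12, which form a complex with the unmeasured BOP1, stood at -0.075 and 0.084, and neither passed. The other WDR12 probe sets gave -0.087 and -0.16, so its probe sets differed in sign. NIP7 and NOP16 stood at -0.032 and -0.021. The other NIP7 probe set gave 0.051, and the other NOP16 probe sets gave -0.091, 0.098 and 0.076.

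Abundant nucleolar proteins gave 5 negative differences of 5 and 0 calls by limma, with 1 unadjusted p under 0.05. NPM1, the histone chaperone nucleophosmin, read 14.31, 14.22, 14.26 and 14.23 in the control arrays and 14.19, 14.24, 14.20 and 14.22 in the YAP shRNA arrays. On this probe set the groups overlapped, and the interval of the difference was -0.13 to 0.039. The other NPM1 probe sets gave -0.061 and -0.10 (limma adjusted p = 0.371 and 0.193 over all probe sets). In the one at -0.061 the groups did not overlap, at 14.155 to 14.213 with the control shRNA and 14.103 to 14.148 with the YAP shRNA. NCL (nucleolin), DDX21 (a nucleolar RNA helicase) and LYAR stood at -0.024, -0.039 and -0.038. The other probe sets of NCL and LYAR gave 0.019 and 0.0052, and those of DDX21 and RRP1B gave -0.0089 and -0.074. RRP1B had the largest difference of the 5, -0.12 (limma adjusted p = 0.160), with control arrays at 12.42 to 12.58 and YAP shRNA arrays at 12.26 to 12.41.

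**Figure D2:**
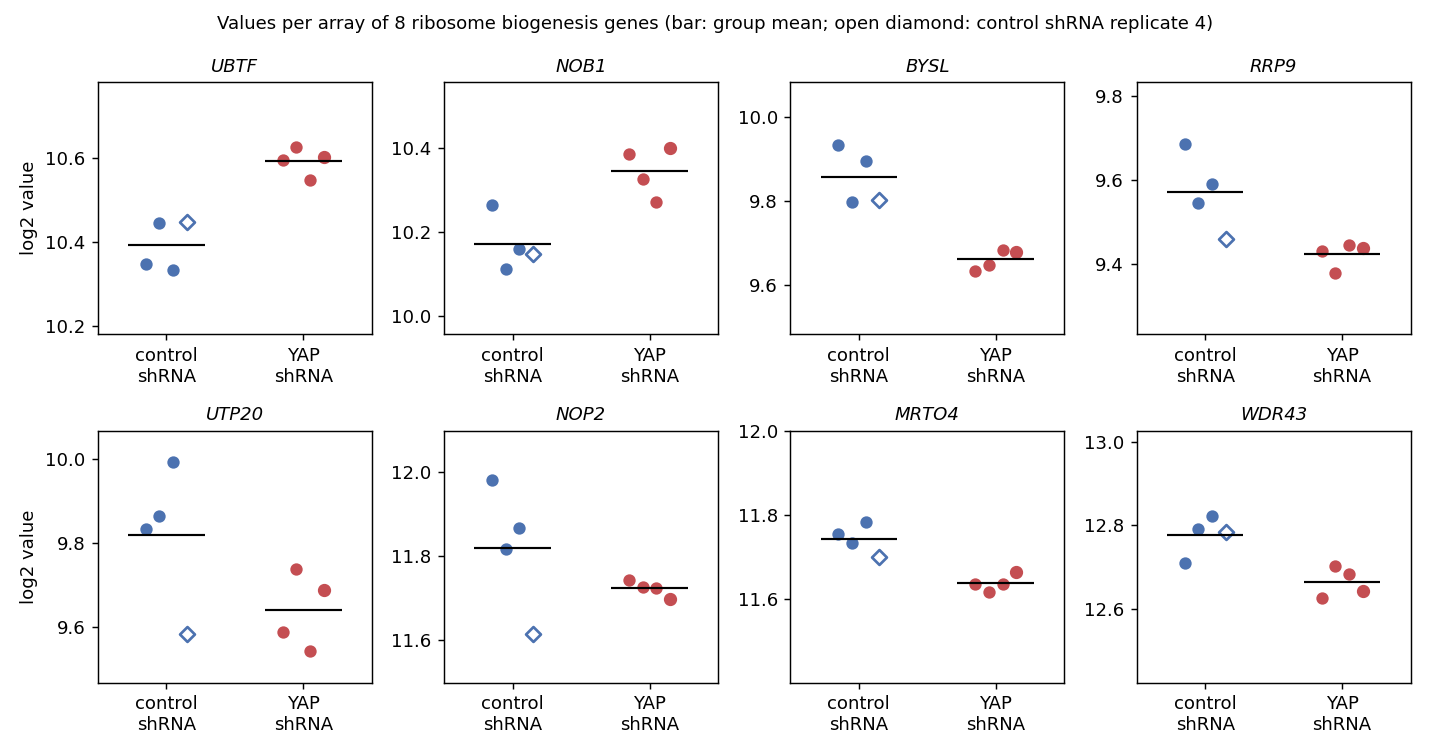
Log2 values per array of 8 members, each panel spanning 0.6 log2 units, with bars at the group means and control shRNA replicate 4 as an open diamond. In UTP20 and NOP2 the diamond lies within or below the YAP shRNA arrays, while in BYSL, MRTO4 and WDR43 it lies above all of them.

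The control arrays differed among themselves in these genes. Control shRNA replicate 4 was the lowest control array for 17 of 30 members, or 56.7%, against 25.3% of all genes. Control shRNA replicate 1 was the highest control array for 16 members, or 53.3%, against 25% of all genes. The median deviation of control shRNA replicate 4 from the mean of the other 3 control arrays was -0.058 over the members and 0.038 over all genes. It ranged from -0.31 for UTP20, followed by NOP2 at -0.27 and POLR1A at -0.24, to 0.26 for NIP7. NIP7, a large subunit factor, read 11.34, 11.27, 11.30 and 11.57 in the control arrays and 11.28 to 11.38 in the YAP shRNA arrays.

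The YAP shRNA arrays were tighter. The median standard deviation between replicates was 0.061 for control arrays but 0.031 for YAP shRNA arrays, and the control value was the larger in 25 of 30 members, or 83.3%, against 67.1% of all genes. Groups did not overlap in 9 of 30 members, where 24.3% of all genes did not overlap. Of these 9, UBTF, NOB1, POLR1C and NOLC1 were higher with the YAP shRNA and BYSL, RRP9, MRTO4, WDR43 and RRP1B lower. Without control shRNA replicate 4, groups did not overlap in 16 members (53.3%, against 31.6% of all genes), 4 higher and 12 lower. As a gauge of RNA quality, GAPDH control probe sets read 0.198 ± 0.0116 (SD, n = 4) higher at the 3' than at the 5' end with the control shRNA and 0.178 ± 0.0114 with the YAP shRNA. The exact permutation p, two-sided, was 0.0857 for n = 4 against 4, a design whose smallest p is 0.0286. For ACTB the same gap was 0.990 ± 0.0879 with the control shRNA and 1.02 ± 0.0920 with the YAP shRNA (SD, n = 4 each, exact permutation p = 0.686). The part of RNA quality in the member values was not tested.

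**Figure D3:**
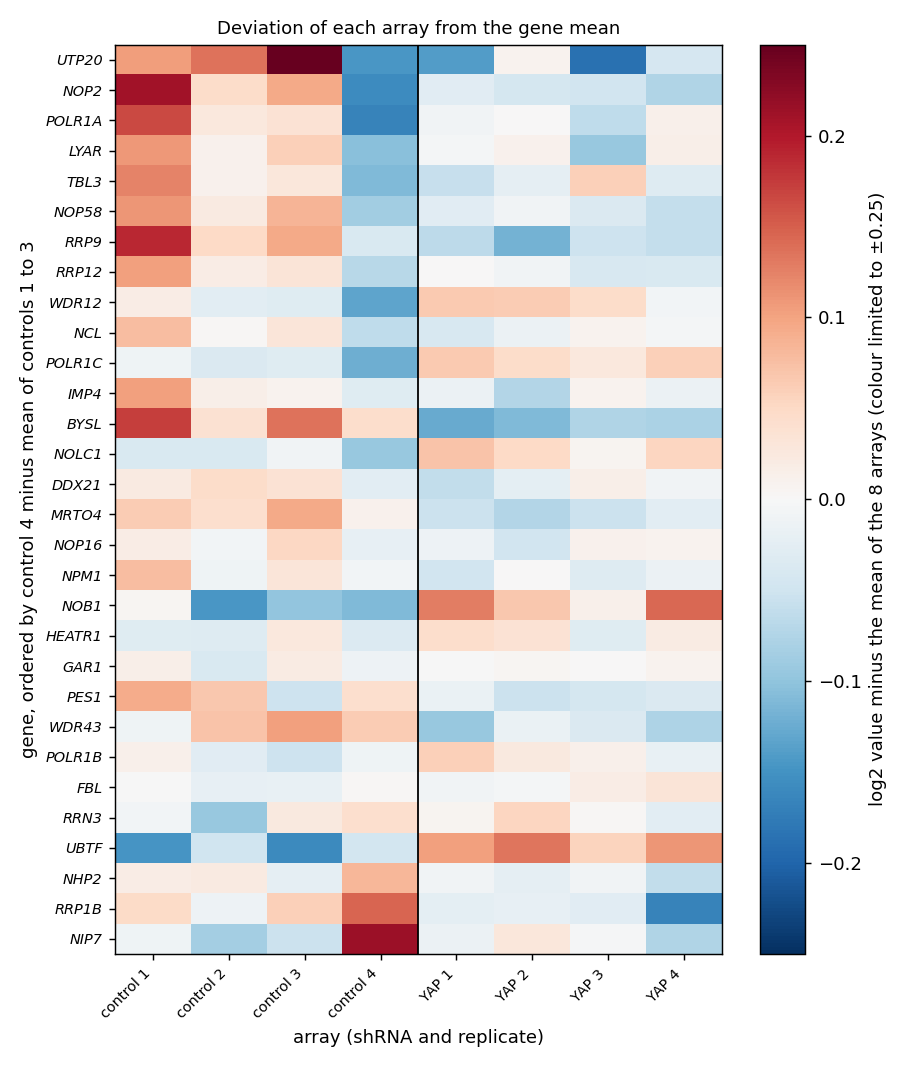
Each array's log2 value minus the gene's mean over 8 arrays, for 30 members ordered by the deviation of control shRNA replicate 4 from the other control arrays. Colour stops at 0.25 in either direction. In the top 8 rows control shRNA replicates 1 and 3 are red and replicate 4 is blue, and in the last row, NIP7, replicate 4 is red.

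Promoter sequence was not used to choose the list. The E-box CACGTG, which reads the same on both strands, was searched in windows from 250 bases before to 50 bases after each transcript start (RefSeq, GRCh38.p14). Of 26 measured members with a window, 12 held it, or 46.2%, against 10.9% of the 15384 array genes with a window and 13.1% of those whose window had a GC content of at least 60%. The share was 34.4% in other ribosome biogenesis genes (31 of 90), 35.7% in polymerase III genes (5 of 14) and 9.38% in ribosomal protein genes (3 of 32). Wholly within the 250 bases before the start, only 4 members held it, or 15.4%, against 9.69% of array genes. There the share was 18.9% in other ribosome biogenesis genes, 28.6% in polymerase III genes and 6.25% in ribosomal protein genes. All 5 members that fell without control shRNA replicate 4 held it, and UBTF and NOB1 did not. Those 5 sites are shown first because their genes are the falls called without that array, of which BYSL alone was also called on 8 arrays. Each is shown in a stretch of 30 bases with the E-box in capitals.
UTP20 at chr12:101280083-101280112, plus strand: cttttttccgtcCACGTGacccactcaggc
RRP9 at chr3:51941892-51941921, minus strand: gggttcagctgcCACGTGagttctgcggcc
BYSL at chr6:41921515-41921544, plus strand: ttcttcagtcccCACGTGcgatccttcccg
MRTO4 at chr1:19251807-19251836, plus strand: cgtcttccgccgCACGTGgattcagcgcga
NOP2 at chr12:6568242-6568271, minus strand: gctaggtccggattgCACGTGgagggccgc
All 5 lie close to the start: the first base of the E-box is at -10 in UTP20, -5 in RRP9, 29 in BYSL, 15 in MRTO4 and 36 in NOP2, counted from the transcript start. Some members that held the site and passed the test in neither fit are shown beside them. There the same letters at a like distance went with differences of -0.11 for WDR43 and 0.019 for FBL. GAR1, LYAR and IMP4 also held it, passed in neither fit and are not shown. In GAR1 it began at 32, with a difference of 0.0075.
WDR43 at chr2:28894658-28894687, plus strand: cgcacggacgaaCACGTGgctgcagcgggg
FBL at chr19:39846356-39846385, minus strand: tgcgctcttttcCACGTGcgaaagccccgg
DDX21 at chr10:68956604-68956633, plus strand: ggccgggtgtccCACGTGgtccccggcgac
PES1 at chr22:30591880-30591909, minus strand: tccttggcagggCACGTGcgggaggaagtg
A match is a description of these letters and not evidence that a factor was bound.

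Longer stretches of 1 member of each kind follow, the 250 bases before the start of UTP20 with its E-box in capitals and those of NOB1, where these letters do not occur.
UTP20 at chr12:101279855-101280104, plus strand: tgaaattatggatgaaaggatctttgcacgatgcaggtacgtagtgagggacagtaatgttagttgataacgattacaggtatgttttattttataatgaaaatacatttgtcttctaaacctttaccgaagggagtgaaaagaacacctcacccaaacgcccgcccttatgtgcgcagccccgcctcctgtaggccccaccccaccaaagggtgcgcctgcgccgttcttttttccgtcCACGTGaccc
NOB1 at chr16:69754927-69755176, minus strand: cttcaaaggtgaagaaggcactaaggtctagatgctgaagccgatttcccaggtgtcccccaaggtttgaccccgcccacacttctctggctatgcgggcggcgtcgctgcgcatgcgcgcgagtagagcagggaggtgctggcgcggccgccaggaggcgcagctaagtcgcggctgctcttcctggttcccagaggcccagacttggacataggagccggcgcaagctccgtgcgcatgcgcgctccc

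Members with the E-box had lower differences than members without it, as a description with no test. The 12 with it had a median log2 difference of -0.086, with 10 of 12 negative. The 14 without it had a median of -0.0011, with 7 of 14 negative. Without control shRNA replicate 4 the medians were -0.095 and 0.032, and 5 of the 12 fell against 0 of the 14. In that same fit 9.27% of 1672 array genes with the E-box and 8.59% of 13712 without it fell. The split was not seen in the other ribosome biogenesis genes. On 8 arrays, 31 with the E-box had a median of 0.0033 and 2 falls, and 59 without it had a median of -0.022 and 9 falls. Without control shRNA replicate 4 the medians were -0.0086 and -0.047, with 3 and 11 falls. Over all array genes the medians on 8 arrays were 0.016 (1672 genes with it) and 0.011 (13712 without). The members' split also rested on sites that did not lie wholly before the start. Counting only sites wholly within the 250 bases before it, 4 members held the E-box. The difference between the medians on 8 arrays then went from -0.085 to -0.018. That count leaves out RRP9, whose site begins at -5 and runs across the start. CATTCC, the core of the TEAD motif, on either strand, lay in 26.9% of members and 15.7% of array genes. It lay in 7.78% of other ribosome biogenesis genes, 7.14% of polymerase III genes and 6.25% of ribosomal protein genes. The members holding it were BYSL, GAR1, NHP2, NPM1, LYAR, HEATR1 and IMP4, and all but BYSL were called in neither fit.

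**Figure D4:**
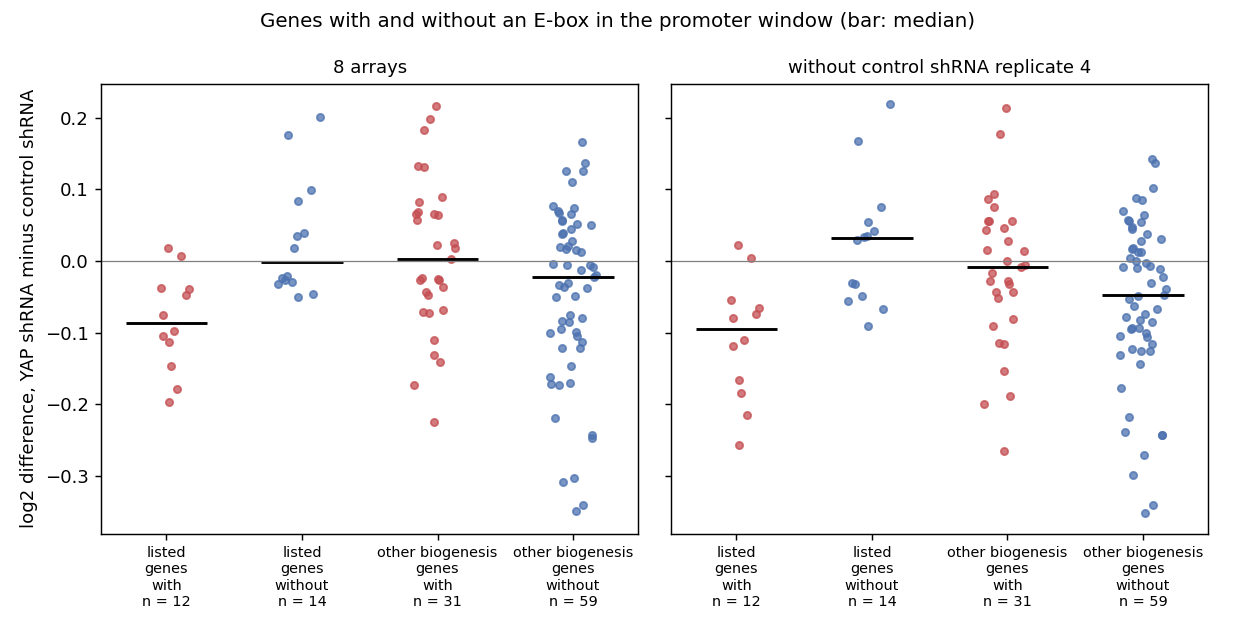
Log2 difference (YAP shRNA minus control shRNA) of genes with (red) and without (blue) CACGTG in the promoter window, for the listed genes and for other ribosome biogenesis genes, with bars at the medians, for 8 arrays (left) and without control shRNA replicate 4 (right). The bars of the listed genes stand at -0.086 and -0.0011 on the left, and those of the other genes at 0.0033 and -0.022.

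Beyond the list, 12 of 101 other measured ribosome biogenesis genes fell and 3 rose, 14.9% in all, with a median of -0.019. Of all genes 16.7% were called, 7.17% lower and 9.49% higher. The steepest falls were those of NOP9, a pre-rRNA binding protein, by 0.35 (limma adjusted p = 0.000314), UTP15 of the processome by 0.34, the kinase gene RIOK2 by 0.31, and NUFIP1, a snoRNP assembly factor, by 0.25. NOP14, UTP25 and MAK16 rose by 0.20, 0.18 and 0.18. Without control shRNA replicate 4, 16 fell and 3 rose, 18.8% in all, where 8.25% of all genes fell and 11.4% rose. Of 10 other polymerase I genes, 3 fell: the polymerase subunit genes POLR1G and POLR1E by 0.29 and 0.23, and TAF1B, part of the selectivity factor, by 0.29. The same 3 were called without control shRNA replicate 4, where 8.25% of all genes fell.

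Among 18 polymerase III genes, MAF1, a repressor of that polymerase, rose by 0.26 and POLR3G by 0.15, and GTF3C2 fell by 0.24. These made up 16.7%, the same share as over all genes. Without control shRNA replicate 4 the count stayed at 3: POLR3G was not called (limma adjusted p = 0.0503), and POLR3A, the largest subunit, rose by 0.18 (limma adjusted p = 0.0123). None of 36 ribosomal protein genes was called by limma, and 0 had an unadjusted p under 0.05. The median of their control means was 14.27, where the highest value of each array lay at 14.83 to 14.89. Whether values so near the top of the range understate differences was not tested. Limma again called 0 without control shRNA replicate 4, with 3 unadjusted p under 0.05. On 8 arrays the smallest adjusted p was that of RPL29, which stood at 0.083 (limma adjusted p = 0.187). Of 4 measured genes of the 5S particle and p53 link, 0 were called by limma on 8 arrays (1 unadjusted p under 0.05), and CDKN1A, a p53 target, rose by 0.27 without control shRNA replicate 4.

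In the MYC network, 3 of 11 genes rose and 0 fell, where 9.49% of all genes rose and 7.17% fell. Without control shRNA replicate 4, MXI1 was added (0.15), making 4 of 11, where 11.4% of all genes rose. MXD1, which pairs with MAX and represses from E-boxes, read 10.50, 10.37, 10.40 and 10.61 in the control arrays and 10.98, 11.01, 11.02 and 11.06 in the YAP shRNA arrays. The groups were well apart, with a log2 difference of 0.55 (standard error 0.057, limma adjusted p = 0.000395). MNT, another MAX-binding repressor, rose by 0.37 (limma adjusted p = 0.00324), although its second probe set gave -0.0026, and MLXIP rose by 0.22. MYC itself read 12.28, 12.21, 12.33 and 12.18 in the control arrays and 12.24, 12.66, 12.56 and 12.61 in the YAP shRNA arrays. YAP shRNA replicate 1 lay within the control range, and the difference of 0.26 did not pass (limma adjusted p = 0.0888). Over all genes of chromosome 8, where MYC lies, the median difference was 0.066.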

How the data were processed

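Each array has a deposited log2 value per probe set, from total RNA that, per the labels, went through NuGEN amplification and biotin labelling. The log base was inferred from the range of values. How the authors corrected background, summarised probes and normalized is not given in the sources used here. Array medians differed by less than a limit of 0.5, so no further normalization was made. Of 54675 probe sets, 41097 carried 1 symbol, 1801 several and 11777 none in GEO's platform annotation, and 41043 matched RefSeq by Entrez ID. No array pair was identical, and the number of arrays limits the precision. Apart from setting ribosomal protein genes beside the top of the arrays' range, levels of different probe sets were not compared or ranked.

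The fit was limma 3.58.1 in R 4.3.3 over 19775 genes, with no block, called at adjusted p below 0.05. On simulated data of this comparison over 19775 genes it recovered 0% of changes of 0.1 log2, 6% of 0.2, 30% of 0.3 and 58% of 0.5, with 3 unchanged genes called. Each size was given to 50 genes drawn from all genes, dim ones included. Far more genes were called in the data than were changed in the simulation. The members' median standard error was 0.042, against 0.068 over all genes. These recovery rates therefore need not hold for the members. Members and lists were chosen with earlier results of these data known. Values per array are given for called members and the largest differences, and up to 4 called genes per direction from each wider list. Some further members and sites were chosen after their values were seen. Alternatives were quantile normalization, median centring, dim genes left out, other probe set choices, other spread models and threshold, leaving out each array, and a replicate block. Pairs of arrays with the same replicate number had correlations of deviations of -0.1703, -0.0588, 0.002 and -0.2061. These gave no sign of pairing by number, but 4 such values cannot exclude it. Figures used matplotlib 3.10.9.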

Additional observations from a re-analysis of the deposited data

Results flagged for a closer look

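In 72 groups of 4 values (30 members, 4 other named genes and 2 measures of RNA quality), 5 held 1 array far from its group (Dixon's criterion), and chance alone would pick about 1 in 20, or 3.6. RRP1B was low at 12.26 in YAP shRNA replicate 4, against 12.40 to 12.41 in the others. HEATR1 was high at 12.13 in control shRNA replicate 3, against 12.07 to 12.08. YAP1 was high at 12.77 in control shRNA replicate 3, against 12.59 to 12.61. In control shRNA replicate 3 the GAPDH 3' minus 5' gap was small at 0.181 (others 0.201 to 0.205). In YAP shRNA replicate 1 the ACTB gap was large at 1.16 (others 0.964 to 0.988). None of the 5 lay in control shRNA replicate 4.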

How the results depend on the processing

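The count of members called, 3, became 8 (4 higher, 4 lower) without genes dimmer than the median, where 39.3% of the remaining genes were called against 26.7% of members. It was also 8 with the trend and robust spread model, and 6 with array weights or at adjusted p below 0.1. With each array left out in turn it ranged from 1 to 6, the 1 without YAP shRNA replicate 2 and the 6 without control shRNA replicate 4. With the replicate block it was 1, all genes called were 2106 and calls in the wider lists, 24, were 12. UBTF was the member called there, while BYSL (limma adjusted p = 0.0740) and NOB1 (0.0889) were not. The labels do not say whether same-numbered arrays share more than a number. Wider list calls were 41 without those dimmer genes and 43 with the trend and robust model, and 16 to 30 with an array left out. All genes called stayed between 2381 and 3881 with an array left out. The members' median stayed between -0.055 and -0.017 in all settings. The difference between members with and without CACGTG was -0.19 without _x_at, _s_at and _a_at probe sets, -0.11 with array weights, -0.13 to -0.064 with an array left out and -0.018 with the 250 bases before the start only, a window added after the data were seen. Causes were not tested beyond what fewer genes or samples account for by construction. UBTF lost its call in 1 of 18 settings, BYSL in 2 and NOB1 in 9, and MRTO4 gained one in 8 and RRP9 in 5, each with its direction kept. In the simulation few changes as small as most seen here were recovered, but its rates need not hold for these members.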

Other observations

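On 8 probe sets, the annotation joined the symbol of 1 of 4 unmeasured members with other symbols, so no gene is named from them. Their differences, YAP shRNA minus control shRNA, ranged from -0.070 to 0.13 with a median of 0.031, and the groups overlapped in all 8.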
